A study of Mus musculus with 10 samples.

Results

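The olfactory receptor (OR) genes numbered Olfr829 to Olfr885 on mouse chromosome 9 were examined in the main olfactory epithelium (MOE), which holds the odor-sensing neurons of the nose. They were found as probe sets for which the platform annotation gives a single gene symbol, numbered from Olfr829 to Olfr885. This gave 37 genes with 1 probe set each, out of 1034 OR probe sets for 1026 genes and 35556 probe sets in all on the Affymetrix Mouse Gene 1.0 ST array. Counts of ORs outside these genes are counts of probe sets. The gene table numbers 57 genes in this range, 19 of them pseudogenes. Of these, 2 more (Olfr884 and Olfr885) were read only by probe sets shared with other ORs, and only 1 measured gene, Olfr856-ps1, is a pseudogene.

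The arrays came from 5-week old mice, 6 from wild type (WT) animals and 4 from H2be-GF animals. H2be-GF mice carry a transgene that places Flag-H2be, the epitope-tagged histone variant H2BE, under the promoter of Omp, which is active in mature olfactory neurons. Per the study's methods founders were crossed to C57Bl/6 mice, and a band of neurons near one zone of the tissue lacks the transgene. The study pooled RNA of several animals for every array, of more animals for H2be-GF than for WT. Pool size therefore cannot be told apart from genotype. The comparison asks which OR transcripts become more or less abundant in mice made to over-express H2BE. In whole tissue, fewer neurons that express an OR and less RNA per neuron cannot be told apart.

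ORs are G protein-coupled receptors of the cilia of olfactory neurons, and a mature neuron expresses a single OR allele out of the whole family. OR genes lie in clusters along the chromosomes, and those of a cluster often arose from one another by duplication. Their MOR numbers, an older nomenclature, group receptors of like protein sequence into subfamilies. The subfamilies described here belong to the class II ORs.

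The 37 genes did not form 1 cluster. Between Olfr873 and Olfr874 the annotation places 308 other genes, only 3 of them ORs, whereas at most 5 genes lie between any other pair of neighbours. The genes therefore fell into a first stretch of 30, Olfr829 to Olfr873, and a second of 7, Olfr874 to Olfr883, and each stretch is given by itself below. Of the 37 genes, 20 had a mean log2 signal above 7, the limit that the study set for ORs, 15 lay between 5 and 7, and 2 (Olfr836 and Olfr837) lay below 5 and were not tested. Just above the limit of 7 were Olfr883 at 7.02 and Olfr866 at 7.11, and just below it were Olfr876 at 6.99 and Olfr872 at 6.84. Olfr883 passed through its H2be-GF mean alone, at 6.96 in WT. Signals of different probe sets are not compared with each other, since each has its own brightness.

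The arrays agreed in their general properties, with medians of 7.745 to 7.907. Xist, a marker of female tissue, was high on 5 arrays (H2be-GF 1 and 2, WT 1 to 3) and low on the other 5, where the Y-linked gene Eif2s3y was high, so that each set holds both genotypes. The probe set of the H2BE gene (Hist2h2be, H2bc21 in the annotation) was at 11.84 in H2be-GF and 12.07 in WT, with a change of -0.23 (SE 0.06, limma adjusted p = 0.297). Whether this probe set can read the transgene was not determined, so these arrays do not show the over-expression, and H2be-GF stands for the arrays labelled so. Of 26 measured genes of mature neurons and odor transduction, 0 were called over all probe sets in limma (4 had an unadjusted p under 0.05), at a median change of -0.07. Of 16 measured genes of OR choice, 1 was called, the homeodomain factor Lhx2, at 0.37 (SE 0.06, limma adjusted p = 0.0425). The marker lists of 11 cell types held no gene called in limma, and no marker was at 0. However, 3 of the 4 respiratory ciliated cell genes had an unadjusted limma p under 0.05. Over all 23194 probe sets tested 8.43% had such a p. The log2 of the summed linear signal of the ciliated cell genes was 11.41 to 11.57 in H2be-GF and 11.58 to 11.73 in WT. That of the 7 mature neuron markers was 14.98 to 15.06 in H2be-GF and 15.06 to 15.15 in WT. For the 26 genes of mature neurons and odor transduction it was 16.34 to 16.39 in H2be-GF and 16.4 to 16.48 in WT. The ranges of the other lists, those of the other cell types and of OR choice, overlapped. The part of these cells in the OR changes was not tested.

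A group of 4 ORs of the first stretch was called higher in H2be-GF mice, and no OR of either stretch was called lower. Olfr849, Olfr835, Olfr845 and Olfr873 rose by 0.44, 0.41, 0.40 and 0.38 (log2), or 1.36-, 1.33-, 1.32- and 1.30-fold, with every H2be-GF array above every WT array. These calls are limma adjusted p-values under 0.05 over the 748 ORs with a mean above 7. They make 4 of the 20 genes tested, all of them among the 14 of the first stretch, where 4.01% of the 748 ORs were called higher and 5.88% lower (9.89% in either direction). The 30 ORs behind that share of higher calls became 9, 6 and 17 without H2be-GF 1, 2 or 3 and 13, 15 and 13 without WT 3, 5 or 6, and were 22 to 44 without any other single array. Adjusted over all 23194 probe sets tested, 0 of 35 genes were called in limma, against a background of 0.0862%, while 9 had an unadjusted p under 0.05 and all 9 were higher. Among all ORs with a mean above 5, 11.0% had such a p and were higher and 8.94% had one and were lower.

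Olfr849, the only OR of subfamily MOR151 with a probe set of its own, was at 8.12, 8.19, 8.29 and 8.11 on the 4 H2be-GF arrays. On the 6 WT arrays it was at 7.79, 7.76, 7.43, 8.0, 7.74 and 7.67. The H2be-GF arrays lay within a narrow range above all WT arrays, of which WT 4 came nearest. The means were 8.18 ± 0.08 (SD, n = 4) and 7.73 ± 0.18 (SD, n = 6), and limma gave an adjusted p of 0.0144 over ORs and 0.189 over all probe sets. The call was lost without H2be-GF 2 (adjusted p = 0.0515, change 0.44), and the change was 0.38 to 0.50 when 1 array was left out.

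Olfr835 and Olfr845 are the only ORs of subfamily MOR150 with probe sets of their own. Olfr835 was at 8.42, 8.43, 8.19 and 8.28 in H2be-GF and at 8.12, 8.07, 7.99, 7.90, 7.71 and 7.73 in WT. Olfr845 was at 8.13, 7.99, 7.95 and 7.86 in H2be-GF and at 7.72, 7.78, 7.56, 7.73, 7.18 and 7.50 in WT. Both ranges stayed apart, although WT 1 came near the lowest H2be-GF array for Olfr835 and WT 2 did so for Olfr845. The limma adjusted p over ORs was 0.0211 for Olfr835 (SE 0.10) and 0.0456 for Olfr845 (SE 0.11). Olfr835 lost its call without H2be-GF 1 or 2, with adjusted p-values of 0.0684 and 0.0757 and a change of 0.38 in each case. Olfr845 lost it without any one of the H2be-GF arrays, without WT 3 or without WT 6, with adjusted p-values of 0.0506 to 0.128 and changes of 0.35 to 0.44. The call of Olfr845 was also lost when ORs down to a mean of 5 entered the adjustment (adjusted p = 0.0579).

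Olfr873, the last gene of the first stretch and a member of MOR145, was at 7.47, 7.57, 7.55 and 7.39 in H2be-GF. In WT it was at 7.34, 7.10, 7.11, 7.25, 7.06 and 6.81. The lowest H2be-GF array exceeded the highest WT array by little, and the spread was wider among WT arrays (SD 0.18 against 0.08). Limma gave an adjusted p of 0.0300 over ORs. The call was lost without H2be-GF 1, 2 or 3 and without WT 3 or 5, with adjusted p-values of 0.0550 to 0.0955 and changes of 0.36 to 0.39.

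**Figure D1:**
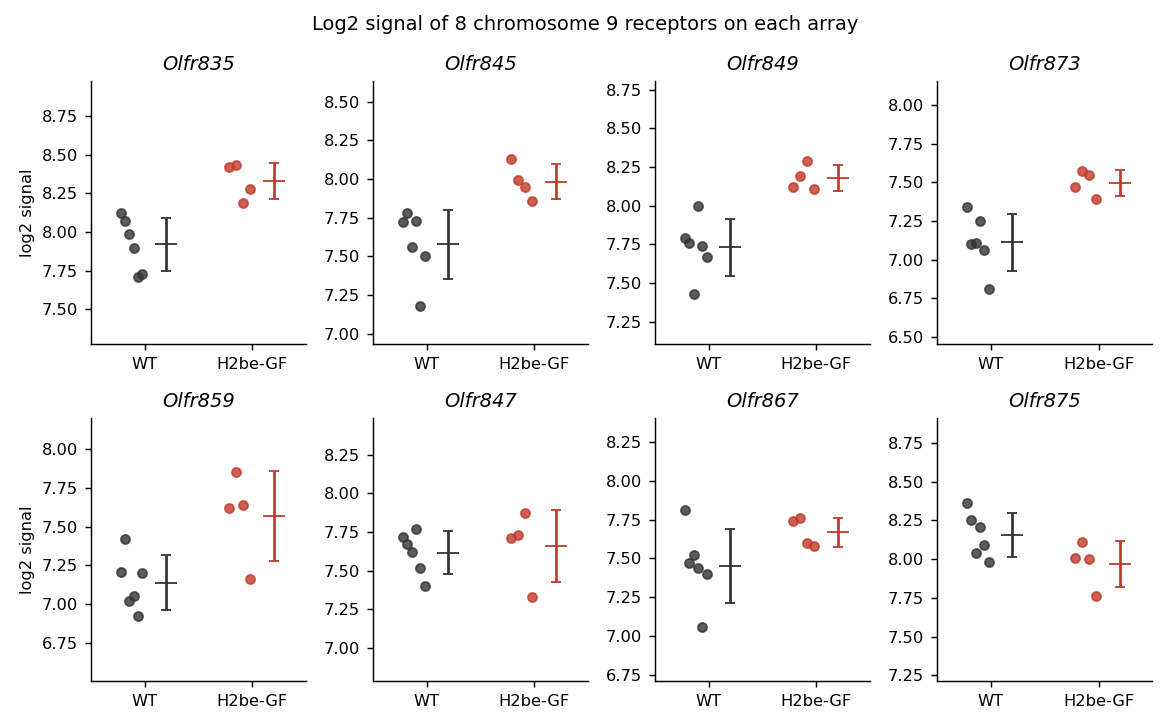
Log2 signal of 8 of the chromosome 9 ORs by array, with dark points for the 6 WT arrays and red points for the 4 H2be-GF arrays, and a bar and whiskers for mean and SD. Every panel spans an equal range of signal. The genotypes do not overlap for Olfr835, Olfr845, Olfr849 and Olfr873 in the upper row, and they overlap for Olfr859, Olfr847, Olfr867 and Olfr875 in the lower row.

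The sequences around the annotated starts of the called ORs are shown because these genes moved in the same direction from separate sites of one cluster. RefSeq windows of build GRCm38.p6, from 250 bases before to 50 bases after the start, were given for 31 of the 37 genes, and not for Olfr834, Olfr847, Olfr856-ps1, Olfr857, Olfr873 and Olfr874. Capitals mark ATG where it stands at base 251, the annotated start, and every match to TAATTA, the core of sites bound by homeodomain proteins such as Lhx2, which reads the same on both strands.
Olfr835, chr9:19034875-19035174, plus strand: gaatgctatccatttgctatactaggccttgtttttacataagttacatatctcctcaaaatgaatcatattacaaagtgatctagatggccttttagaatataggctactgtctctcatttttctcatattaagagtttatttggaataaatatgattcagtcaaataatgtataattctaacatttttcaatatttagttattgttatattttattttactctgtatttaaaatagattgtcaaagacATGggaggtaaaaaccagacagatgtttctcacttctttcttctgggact
Olfr845, chr9:19338209-19338508, plus strand: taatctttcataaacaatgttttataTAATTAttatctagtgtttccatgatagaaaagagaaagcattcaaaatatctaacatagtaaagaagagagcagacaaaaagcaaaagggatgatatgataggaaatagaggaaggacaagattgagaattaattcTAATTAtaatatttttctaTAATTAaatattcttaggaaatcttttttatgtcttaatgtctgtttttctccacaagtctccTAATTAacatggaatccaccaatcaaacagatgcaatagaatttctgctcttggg
Olfr849, chr9:19440665-19440964, plus strand: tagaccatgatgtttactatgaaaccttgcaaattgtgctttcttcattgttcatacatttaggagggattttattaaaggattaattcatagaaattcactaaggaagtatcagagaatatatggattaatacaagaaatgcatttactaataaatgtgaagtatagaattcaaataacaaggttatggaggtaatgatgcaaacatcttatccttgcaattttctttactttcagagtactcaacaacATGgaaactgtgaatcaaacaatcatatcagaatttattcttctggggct
The windows of Olfr835 and Olfr849 read ATG at the annotated start, so that they end in coding sequence and need not hold the start of transcription. That of Olfr845 holds an unmarked ATG just after its last TAATTA, so that the same may apply to it. An ATG at base 251 stood in 51.6% of the 31 windows and 72.3% of all 947 OR windows. TAATTA occurred 4 times in the window of Olfr845 and not in those of Olfr835 and Olfr849. It was present in 12 of the 31 windows (38.7%), in 18.6% of all OR windows and in 5.29% of all 32851 windows, which differ in base composition (32.9%, 36.1% and 53.8% G and C). The 12 genes with a match had changes from -0.17 (Olfr854) to 0.40 (Olfr845). Positive were Olfr830, Olfr837, Olfr845, Olfr860, Olfr868, Olfr869 and Olfr872. Negative were Olfr829, Olfr854, Olfr862, Olfr866 and Olfr877. Whether a match goes with the change was not tested. Olfr835 and Olfr845, the pair of MOR150, shared 55.7% of aligned bases in this window, where the median over all 465 pairs of windows was 52.0%.

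Other genes of the first stretch had positive changes without a call. Olfr859 of MOR146 was at 7.62, 7.85, 7.64 and 7.16 in H2be-GF and at 7.21, 7.42, 7.02, 7.05, 6.92 and 7.20 in WT. H2be-GF 1 to 3 lay above every WT array, and the overlap came from H2be-GF 4 alone. Its change of 0.44 (SE 0.13) had an adjusted p of 0.0591 in limma over ORs. This gene passed the threshold under 10 of 21 alternatives, among them centring on the array median (0.0436) and leaving out H2be-GF 4 (0.0118). Olfr860, its neighbour in the chromosome and in MOR146, was at 8.17, 8.01, 7.72 and 7.64 in H2be-GF and at 7.64, 7.67, 7.50, 7.73, 7.48 and 7.54 in WT. There H2be-GF 3 and 4 lay within the WT range, and the change of 0.29 (SE 0.10) had an adjusted p of 0.112 over ORs in limma. The other MOR146 genes of this stretch, Olfr857 and Olfr862, were dim, at changes of 0.18 (SE 0.19) and -0.08 (SE 0.40). Within this subfamily the windows of Olfr859 and Olfr862 shared 66.9% of aligned bases.

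Olfr855, of MOR148, was at 8.16, 7.93, 7.92 and 7.75 in H2be-GF, and at 7.89, 7.73, 7.77, 7.80, 7.44 and 7.25 in WT. All WT arrays lay below H2be-GF 1 to 3, H2be-GF 4 lay among them, and the change of 0.30 (SE 0.13) had an adjusted p of 0.200 in limma over ORs. The SD of Olfr855 over WT arrays, 0.25, was among the 4 largest of the genes with a mean above 7, beside those of Olfr877 (0.38), Olfr868 (0.25) and Olfr867 (0.24). Olfr843 of MOR155, with a mean below 7, was at 6.94, 6.45, 6.83 and 6.79 in H2be-GF and at 6.54, 6.40, 6.19, 6.45, 6.12 and 6.64 in WT. H2be-GF 2 lay among the WT arrays and the other H2be-GF arrays above them. The change was 0.36 (SE 0.12), with an unadjusted limma p of 0.0118 and an adjusted p of 0.425 over all probe sets. Olfr851, of the same subfamily, was at a change of 0.16 (SE 0.11).

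In MOR145 the changes spread from none to that of Olfr873. Olfr869 was at 7.04, 7.09, 6.90 and 6.87 in H2be-GF and at 6.84, 6.82, 6.76, 6.64, 6.81 and 6.54 in WT, so that the genotypes did not overlap. Its mean lay below 7, and its change of 0.24 (SE 0.08) had a limma adjusted p of 0.421 over all probe sets. Olfr872 followed at 0.21 (SE 0.13), and its window shared 71.2% of aligned bases with that of Olfr869. Olfr868 was at 0.06 (SE 0.12) and Olfr866 at -0.003 (SE 0.14), with 95% intervals of the change of -0.21 to 0.33 and -0.30 to 0.30. The study shows images of Olfr867 from older mice that were not H2be-GF. This gene of MOR143, between those of MOR145, was at 7.74, 7.76, 7.60 and 7.58 in H2be-GF. On the WT arrays it was at 7.81, 7.47, 7.52, 7.44, 7.06 and 7.40. WT 1 lay above every H2be-GF array and the other 5 lay below them all, at a change of 0.22 (SE 0.12, limma adjusted p = 0.294 over ORs).

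The measured neighbours of Olfr835, Olfr845 and Olfr849 varied in their changes, and of those named here only Olfr847 had a mean above 7 and could be called over ORs. Olfr843, the measured gene before Olfr845, was at a change of 0.36 (SE 0.12). Between Olfr845 and Olfr849 lie Olfr846 and Olfr847, both of MOR149, at changes of 0.23 (SE 0.15) and 0.04 (SE 0.11). Olfr847 was at 7.71, 7.73, 7.87 and 7.33 in H2be-GF and at 7.72, 7.67, 7.62, 7.77, 7.52 and 7.40 in WT. Only H2be-GF 4 lay below the WT arrays and only H2be-GF 3 above them, and the 95% interval of its change was -0.19 to 0.28. On the other side of Olfr849 lies Olfr850, dim, at 0.11 (SE 0.17). Olfr834 and Olfr836, the measured neighbours of Olfr835, were also dim, at 0.11 (SE 0.12) and at 0.37 with no test. Whether the change of a called gene differed from that of its neighbour was not tested.

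Of the subfamilies not yet named, MOR152 (Olfr830, Olfr836 and Olfr837) lay between 0.31 and 0.37, at means below 6. MOR153 (Olfr832 and Olfr834) was at 0.20 and 0.11, and MOR141 at 0.08 for Olfr870 (SE 0.14) and 0.41 for Olfr871 (SE 0.22). Olfr871 was at 5.01 on WT 3, far below the other WT arrays, and its change was 0.21 to 0.50 when 1 array was left out. The pseudogene Olfr856-ps1 was at 0.30 (SE 0.14, limma adjusted p = 0.603 over all probe sets), and Olfr853 of MOR154 at 0.04 (SE 0.10). MOR147 held the lowest change of the first stretch, with Olfr850 at 0.11, Olfr829 at -0.03 and Olfr854 at -0.17. The windows of Olfr850 and Olfr854 were the most alike within this stretch, at 82.1% of aligned bases, with changes of opposite sign that were both smaller than their SE.

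**Figure D2:**
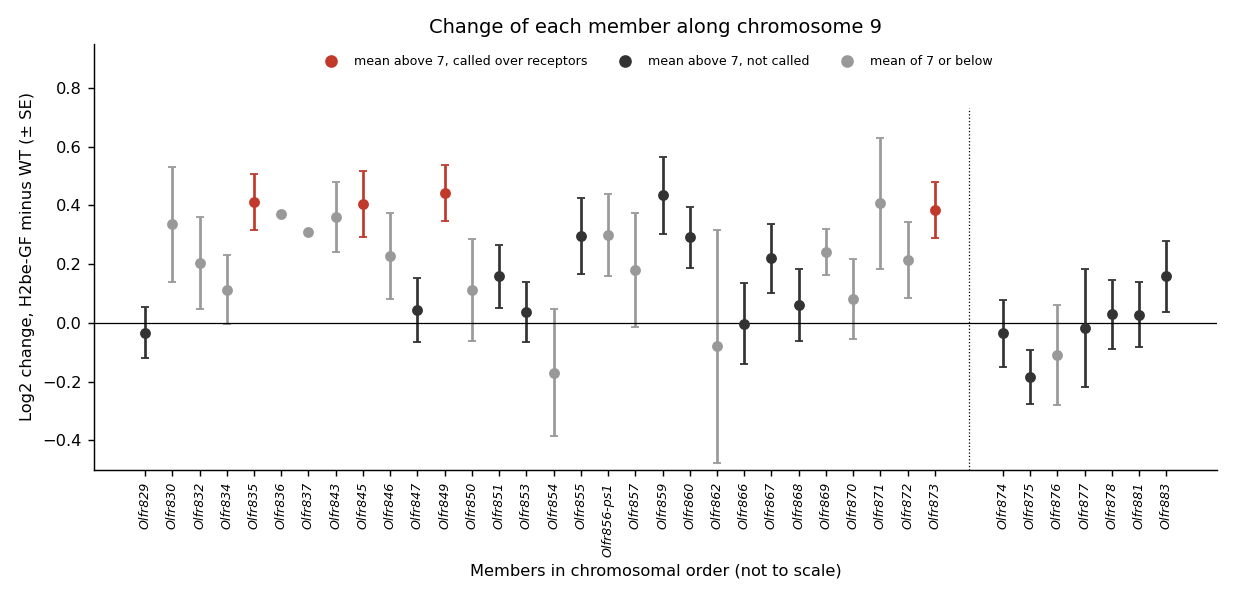
Log2 change (H2be-GF minus WT, ± SE) of the 37 ORs in the order of their genes on chromosome 9, with the 308 intervening genes at the dotted line. Red points are the 4 ORs called over ORs, dark points other ORs with a mean above 7 and grey points dimmer ones, of which Olfr836 and Olfr837 have no SE; 26 of the 30 on the left and 3 of the 7 on the right lie above 0.

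Over the first stretch as a whole, 26 of 30 changes were positive (86.7%), with a median of 0.22 and a range of -0.17 to 0.44. Over all 1034 ORs 57.0% were positive, at a median of 0.03, and over all 23410 probe sets with a symbol the median was 0.01. No test is given for these figures, since the genes share arrays and were listed with results of these data known. Every H2be-GF array exceeded every WT array at 5 of the 30 genes (Olfr835, Olfr845, Olfr849, Olfr869 and Olfr873), where the share over all ORs was 3.19%, and 0 of the 30 showed the reverse, where it was 4.06%. When 1 array was left out, 24 to 28 of the 30 changes were positive and the median lay between 0.19 and 0.29. With each array's ORs centred on their mean it was 0.22 with 26 positive.

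By strand, the 15 genes of the first stretch with a window on the plus strand had a median change of 0.31, with 14 positive and 3 called of 8 tested over ORs. The 10 on the minus strand had a median of 0.10, with 7 positive and 0 called of 4 tested. The other 5, without a window, had a median of 0.18, with 5 positive and 1 called (Olfr873) of 2 tested. This split was not planned, and the difference was not tested.

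Array by array, the median of the 30 genes, each taken relative to its own WT mean, was 0.37, 0.27, 0.24 and 0.10 on H2be-GF 1 to 4. On WT 1 to 6 it was 0.13, 0.14, -0.11, 0.13, -0.13 and -0.10. H2be-GF 4 thus lay below 3 of the WT arrays, and the other H2be-GF arrays lay above them all. The other 997 ORs moved with the array as well, at 0.16, 0.02, 0.03 and -0.09 on H2be-GF 1 to 4 and between -0.10 and 0.12 in WT. The difference between the medians of the 30 genes and the other ORs was 0.22, 0.25, 0.21 and 0.19 on the H2be-GF arrays and between -0.03 and 0.06 on the WT arrays. Among the 37 genes H2be-GF 4 was the lowest H2be-GF array for 24 and H2be-GF 1 the highest for 20.

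**Figure D3:**
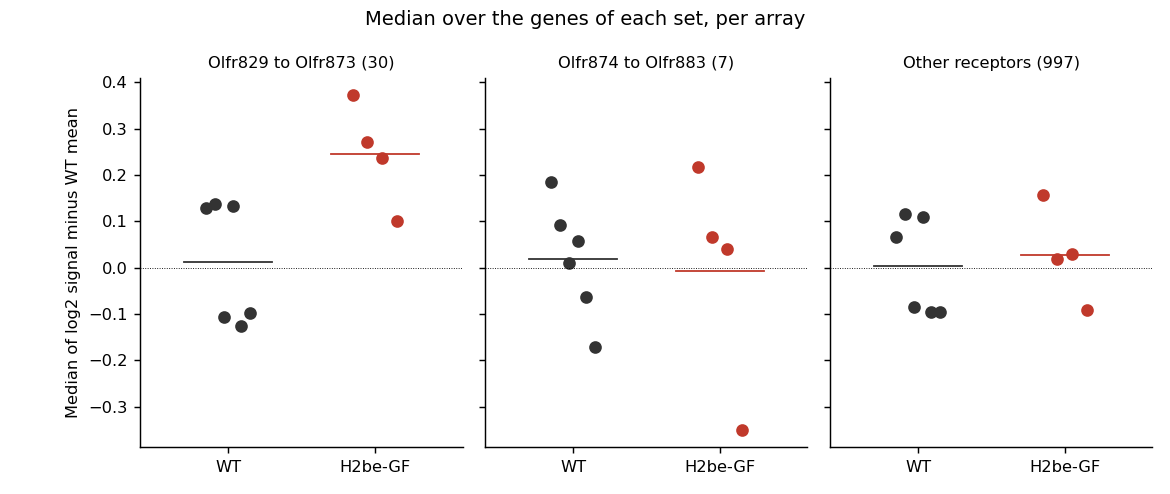
Median over the genes of each set of log2 signal minus the gene's WT mean, 1 point per array, with a line at the mean over the arrays of a genotype. H2be-GF arrays lie between 0.10 and 0.37 for the first stretch and spread around 0 for the second stretch and for the other 997 ORs.

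The second stretch showed no call. Its 7 genes had a median change of -0.02, with 3 positive and a range of -0.18 to 0.16, and 0 of 6 were called over ORs in limma (0 of 7 had an unadjusted p under 0.05). The 4 genes of MOR161 in this stretch had negative changes, none of them called. Olfr875 was at 8.01, 8.11, 8.0 and 7.76 in H2be-GF and at 8.36, 8.25, 8.04, 8.21, 8.09 and 7.98 in WT. The ranges overlapped, since WT 3, 5 and 6 lay among the H2be-GF arrays, and the change of -0.18 (SE 0.09) had an adjusted p of 0.258 in limma over ORs. Its 95% interval, -0.39 to 0.02, does not reach the changes of the called genes of the first stretch. Olfr876, whose window shared 83.3% of aligned bases with that of Olfr875, the highest of all pairs, was at -0.11 (SE 0.17). Olfr874 was at -0.03 (SE 0.11). Olfr877 had the widest spread in WT, from 7.18 to 8.20 in WT and from 7.18 to 7.84 in H2be-GF, at -0.02 (SE 0.20). Olfr878 of MOR163 and Olfr881 of MOR162 were both at 0.03, with SE of 0.12 and 0.11, and Olfr883 of MOR162 was at 0.16 (SE 0.12, limma adjusted p = 0.498 over ORs). The median of this stretch turned with the array left out, from -0.09 without H2be-GF 1 to 0.10 without H2be-GF 4.

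The second stretch is followed on the chromosome by the ORs numbered Olfr886 to Olfr986. Those 71 genes had a median change of 0.11, with 52 positive, and 0 of 50 were called over ORs in limma (10 of the 71 had an unadjusted p under 0.05 and were higher, 1 had one and was lower). In the remaining 926 ORs 26 of 678 were called higher (3.83%) and 44 lower, at a median of 0.02. These 926 were not divided by cluster, so a cluster with like changes among them would not show. The 4 called genes of the first stretch were all the called ORs of these chromosome 9 number ranges.

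**Figure D4:**
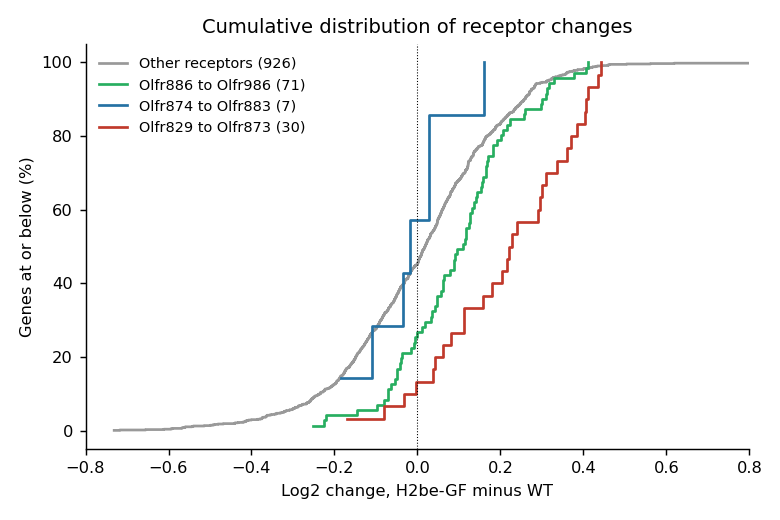
Cumulative distribution of log2 changes (H2be-GF minus WT) for the 30 ORs of the first stretch (red), the 7 of the second (blue), the 71 numbered Olfr886 to Olfr986 (green) and 926 others (grey, cropped at ±0.8). The median of the first stretch lies at 0.22, that of Olfr886 to Olfr986 at 0.11 and those of the other sets between -0.02 and 0.02.

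The changes were also taken within the arrays high in Xist (2 H2be-GF against 3 WT) and within those low in it (2 against 3). Olfr849 changed by 0.49 and 0.39, Olfr835 by 0.37 and 0.46, Olfr845 by 0.37 and 0.44 and Olfr873 by 0.33 and 0.43. As their genotypes did not overlap, both changes had to be positive for these 4 genes, and their sizes are given as a description. Within either set limma called 0 of the 37 genes, and also 0 of all 748 ORs and 0 of all 23194 probe sets. Of the 30 genes of the first stretch 23 were positive in both sets, with medians of 0.26 and 0.12. The 4 called genes and Olfr869, whose genotypes did not overlap, had to be among these 23. The like share over all ORs was not computed. Of the 7 genes of the second stretch 1 was positive in both, with medians of 0.08 and -0.07. The difference between the sets, tested as an interaction in limma, was called for 0 of the 748 ORs, and 1 of the 35 genes tested had an unadjusted p under 0.05, where 2.54% of the ORs did. That gene was Olfr860, at 0.49 where Xist was high and 0.10 where it was low (limma adjusted p = 0.997 over ORs). Olfr862, a dim gene, was at -0.70 and 0.54, with a spread over arrays (SD 0.81 in H2be-GF and 0.68 in WT) as large as these values.

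**Figure D5:**
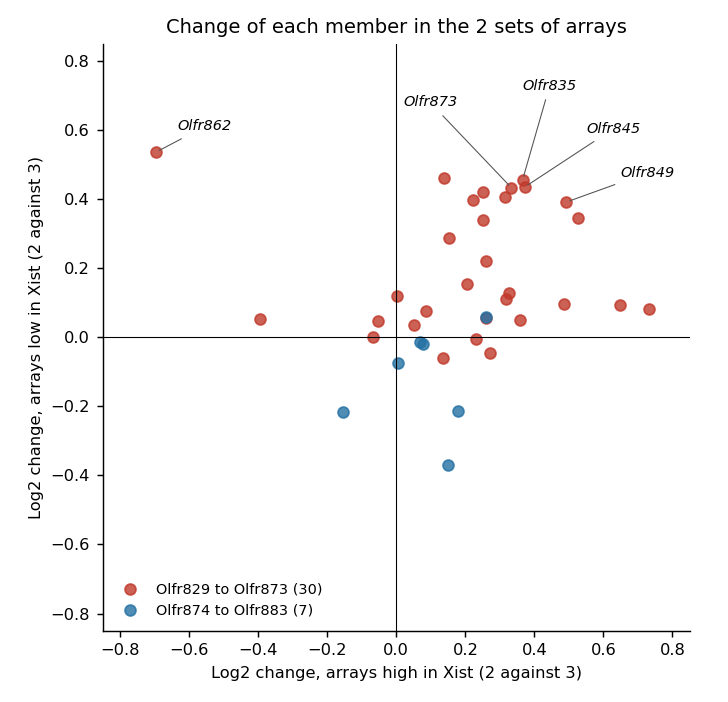
Log2 change (H2be-GF minus WT) of each of the 37 ORs with arrays of high Xist on the horizontal axis and those of low Xist on the vertical (5 each), red for the first stretch and blue for the second. The 4 called ORs, whose genotypes do not overlap and whose changes had to be positive on both axes, lie between 0.33 and 0.49, and 23 of the 30 red points have both changes above 0.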

How the data were processed

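Whole MOE was profiled on 10 arrays, and the authors deposited log2 values. Per the study's methods, scans were screened with arrayQualityMetrics, and Expression Console gave 1 value per probe set by IterPLIER with sketch-quantile normalization. No source used here names versions or a genome build. Quantile normalization hides a change shared by most genes. The number of arrays limits precision, and p-values reflect only how these pools of animals vary.

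The platform annotation named probe sets (21789 with 1 symbol, 1621 with several, 12146 with none). The RefSeq table of GRCm38.p6 gave gene order and MOR names. Differences were fitted with limma 3.58.1 in R 4.3.3 without covariates on the 23194 probe sets that had a symbol and a mean above 5. Benjamini-Hochberg adjustment, two-sided, ran over these and, as in the study's methods, over the 748 ORs with a mean above 7. A call is an adjusted p under 0.05. Genes outside these limits have plain differences of means. Xist sets were divided at a log2 signal of 8. Windows were aligned globally with Biopython 1.88 (match 1, mismatch -1, gap -2 and -0.5) and plots drawn with matplotlib 3.10.9. Near-identical ORs read by the same probes cannot be told apart, and probe sequences were not used here.

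The genes and lists were chosen with earlier results of these data known. The rule for named genes took those called or with an unadjusted p under 0.05, Olfr835, Olfr849 and Olfr867, the measured neighbours of the first pair, and the 4 with the largest WT SD. Others, named to describe subfamilies, were chosen after their values were seen. Alternatives covered normalization, an added constant of 16, the variance model, weights per array, blocking on replicate number, the Xist set as a covariate, filters and each array left out. Fits within Xist sets were added after seeing the data. The split by strand and the search for TAATTA were not planned either.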

Additional observations from a re-analysis of the deposited data

Results flagged for a closer look

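In 2 of 74 groups (37 genes in 2 genotypes) a single array stood far from the others of its genotype by Dixon's criterion, where chance gives about 1 in 20 groups, or 3.7 of 74. Olfr871 was at 5.01 on WT 3, while the other WT arrays lay between 6.03 and 6.29. Olfr874 was at 7.30 on H2be-GF 4, while the other H2be-GF arrays lay between 7.70 and 7.76. Neither gene was called.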

How the results depend on the processing

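The count of 4 genes called higher over ORs was 3 to 6 under the normalizations, the added constant, the variance model, array weights, the Xist covariate and the filters, and 0 in the fit with a replicate block. The count ranged from 0 (without H2be-GF 2) to 5 when 1 array was left out, with 1 without H2be-GF 1 and 2 without H2be-GF 3 or WT 3. It was 0 within either Xist set, where no OR of the array was called. No gene was called lower under any setting run. Over all probe sets the count of 0 became 2 (Olfr835 and Olfr849) with a trended robust variance. The median change of the 37 genes, 0.18, was 0.14 to 0.18 under the alternatives that keep all arrays, the block included, and 0.13 to 0.25 when 1 array was left out, movements below its SD of 0.12 over WT arrays.

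The replicate numbers did not pair the samples: deviations from the group means correlated at 0.530, 0.219, -0.423 and 0.261 for numbers 1 to 4, and 1 of the 4 H2be-GF arrays correlated best with its own number. With that block limma called 6 ORs, all lower, and the changes of Olfr835, Olfr845, Olfr849 and Olfr873 were 0.31, 0.29, 0.43 and 0.29, with adjusted p-values of 0.0853, 0.114, 0.138 and 0.140, so that none was called.

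Some uncalled genes changed sign. With the block, Olfr847 was at -0.0362, Olfr868 at -0.0774 and Olfr877 at 0.14. Array weights put Olfr877 at 0.0449. In the arrays low in Xist, Olfr834 was at -0.0447 and Olfr850 at -0.0046, and in those high in it Olfr877 was at 0.18. With 1 array left out Olfr847 ranged from -0.0266 to 0.15, Olfr850 from -0.0068 to 0.31, Olfr868 from -0.0067 to 0.12 and Olfr877 from -0.12 to 0.11. The causes were not tested.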

Other observations

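Other ORs of lower number lie beside or among the genes of the first stretch and were looked at after the values were seen. Olfr24 and Olfr828, just before Olfr829, were at changes of -0.09 (SE 0.11) and 0.18 (SE 0.08). Olfr58, just before Olfr859, and Olfr77, beyond Olfr860, were at 0.23 (SE 0.12) and -0.05 (SE 0.12). Olfr39, between Olfr872 and Olfr873, was at 0.25 (SE 0.10, limma adjusted p = 0.175 over ORs), and Olfr18, beyond Olfr873, at 0.05 (SE 0.16). None of the 6 was called in limma, and 1 had an unadjusted p under 0.05. The probe sets that read Olfr884 and Olfr885 together with other ORs, 2 in number, were at 0.09 (SE 0.14) and 0.10 (SE 0.13).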
